A study of Mus musculus with 6 samples.

Results

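The genes described here are 10 genes of the extracellular matrix that encode no collagen. They are the glycoproteins Fn1, Tnc, Postn and Sparc, the microfibril gene Fbn1, the proteoglycans Dcn and Lum, and the crosslinking enzymes Lox, Loxl1 and Loxl2. They were chosen by name, and every probe that carries the name of one of them was taken, which gave 23 probes for 10 of the 36870 gene names on the array. TA was performed on kidneys of female mice that were 6 months of age, with 1 array per mouse. The 3 MRL mice (MRL/MpJ) were the control, and the 3 LPR mice carry the lpr mutation of Fas on both chromosomes in the same background (MRL/MpJ-Fas lpr/lpr), a model of lupus nephritis. No agent was given to either group. The study is about lymphoid tissue around the vessels of such kidneys, and the comparison asks how the matrix genes of the kidney differ between the strains.

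The extracellular matrix of the kidney is made mainly by fibroblasts, pericytes and smooth muscle cells of the interstitium and the vessel wall. Fibronectin is assembled into fibrils on which other proteins are laid down, fibrillin forms the microfibrils that carry elastin, and small leucine-rich proteoglycans such as decorin and lumican bind collagen and set how thick its fibrils grow. Lysyl oxidase and its relatives oxidize lysines in collagen and elastin, so that the fibres become crosslinked, stiff and hard to degrade.

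The sequences of 7 probes are given because the values of their genes are described in full and because 4 of them (Fn1, Fn1, Sparc and Tnc) have ends that lie further apart in the genome than their own 60 bases, so that they detect a spliced transcript. They read 5′ to 3′ in the sense of the transcript, on the mouse genome build mm9. No base is marked.
Dcn A_51_P334104 (chr10:96980233-96980292, + strand): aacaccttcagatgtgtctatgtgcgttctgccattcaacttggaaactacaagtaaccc
Loxl2 A_55_P2131348 (chr14:70090017-70090076, + strand): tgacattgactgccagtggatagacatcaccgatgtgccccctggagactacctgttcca
Loxl1 A_51_P304239 (chr9:58138570-58138629, - strand): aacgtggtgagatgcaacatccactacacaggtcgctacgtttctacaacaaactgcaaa
Fn1 A_51_P100856 (chr1:71637422-71639659, - strand): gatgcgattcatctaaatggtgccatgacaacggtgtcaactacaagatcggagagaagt
Fn1 A_55_P2743309 (chr1:71694694-71695800, - strand): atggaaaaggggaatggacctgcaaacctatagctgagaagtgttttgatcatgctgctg
Sparc A_52_P101852 (chr11:55209449-55212106, - strand): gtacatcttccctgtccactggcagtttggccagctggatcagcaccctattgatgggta
Tnc A_52_P355169 (chr4:63674248-63675011, - strand): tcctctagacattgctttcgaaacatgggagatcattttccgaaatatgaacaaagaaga

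Promoter windows of RefSeq on the build GRCm38.p6 were sought for the genes other than Lox, which was left out of this search. They were matched for 4 of the 10 genes, with 6 windows in all (1 for Fbn1 and Sparc each, 2 for Postn and Tnc each). The 250 bases before the start were searched on both strands for the TATA box (TATAAA) and for the letters TGANTCA and TTCNNNGAA, which stand for the binding sites of AP-1 and of STAT factors. Neither of the last was found in any of the 6 windows. Other forms of the TATA box and of these sites were not searched for. Among all 32851 windows of this length, 6.75% hold TGANTCA and 7.02% hold TTCNNNGAA. The letters TATAAA, found in 12.4% of all windows, are in 1 window of Postn, where they begin 26 bases before the start, and in both windows of Tnc, which overlap, where they begin 205 and 126 bases before it. The windows of Fbn1, a gene that was higher in LPR mice, and of Postn are shown so that a window without and a window with the TATA box can be compared, with the box in capitals.
Fbn1 (chr2:125506439-125506688, - strand): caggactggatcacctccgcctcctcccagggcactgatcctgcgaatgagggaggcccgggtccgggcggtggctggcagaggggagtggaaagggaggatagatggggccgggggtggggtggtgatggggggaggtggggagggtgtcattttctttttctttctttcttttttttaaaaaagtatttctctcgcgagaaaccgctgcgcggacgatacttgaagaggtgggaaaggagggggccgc
Postn (chr3:54360857-54361106, + strand): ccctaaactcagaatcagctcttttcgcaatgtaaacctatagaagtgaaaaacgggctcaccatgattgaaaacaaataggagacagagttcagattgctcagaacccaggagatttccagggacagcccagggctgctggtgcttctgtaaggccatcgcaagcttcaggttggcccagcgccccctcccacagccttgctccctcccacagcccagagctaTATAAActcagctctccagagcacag

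Values are log2 intensities minus the 75th percentile of the array, here called the log2 signal, so that 0 is the signal at that percentile. A log2 change is the mean of the LPR mice minus that of the MRL mice, with its standard error (SE) from limma. Between 69.6% and 73.5% of the spots of an array were well above background, none was saturated, and the number of arrays limits the precision. Over all 39924 tested probes the log2 change had a median of -0.13, against which the changes below can be read. The bright probe of Fas (A_55_P2091676) gave a log2 signal of -0.35, -0.27 and -0.04 in MRL mice 1 to 3 and -0.47, -1.23 and -0.36 in LPR mice 1 to 3, a log2 change of -0.47 that did not pass in limma (adjusted p = 0.235). A second, dim probe of Fas (A_52_P73385) was well above background in all 3 LPR mice and in 0 of 3 MRL mice. It therefore met the filter only through the LPR mice. The lower bound of its fold was 1.47, and this bound was not tested. The markers of podocytes (4 of 4), of the proximal tubule (4 of 4) and of the distal tubule and collecting duct (5 of 5) were well above background on all 6 arrays, as the label of the tissue states.

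Of the 10 genes, each read by its brightest tested probe, 4 were higher in LPR mice (Lum, Loxl2, Dcn and Fbn1), 0 were lower, and 6 had no adjusted p under 0.05 in limma. Of all 25805 genes tested, 7.12% were higher and 5.39% were lower by the same rule. The log2 change was above 0 in all 10 genes, from 0.43 in Postn to 1.23 in Lum, with a median of 0.61, against a median of -0.12 for all tested genes. In 7 of the 10 genes each LPR mouse was above each MRL mouse, which was so for 11.8% of all genes with 6 values. Before adjustment, 8 of the 10 genes had a p under 0.05, all of them with a higher signal in LPR mice, against 29.3% of all tested genes, or 10.6% counting higher genes alone. By the methods' test (the test of single genes in the study's methods, on log2 values) 0 of the 10 genes were lower as well. The p-values of that test were adjusted here like those of limma, whereas the study's methods name no adjustment. Of the 23 probes 22 had a signal well above background in at least 3 mice and were tested, and 7 of these were higher and 0 lower, whereas 6.54% of all tested probes were higher and 6.07% were lower (2610 and 2423 probes, or 2532 and 4542 with normexp background correction). These 7 probes belong to 5 genes, since 1 probe of Postn passed although the brightest did not. Left out in turn, LPR 1, MRL 1 and MRL 3 each lowered the count of higher probes to 3, and LPR 3 lowered it to 4. In whole kidney, more cells of a type and more RNA per cell cannot be told apart.

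**Figure D1:**
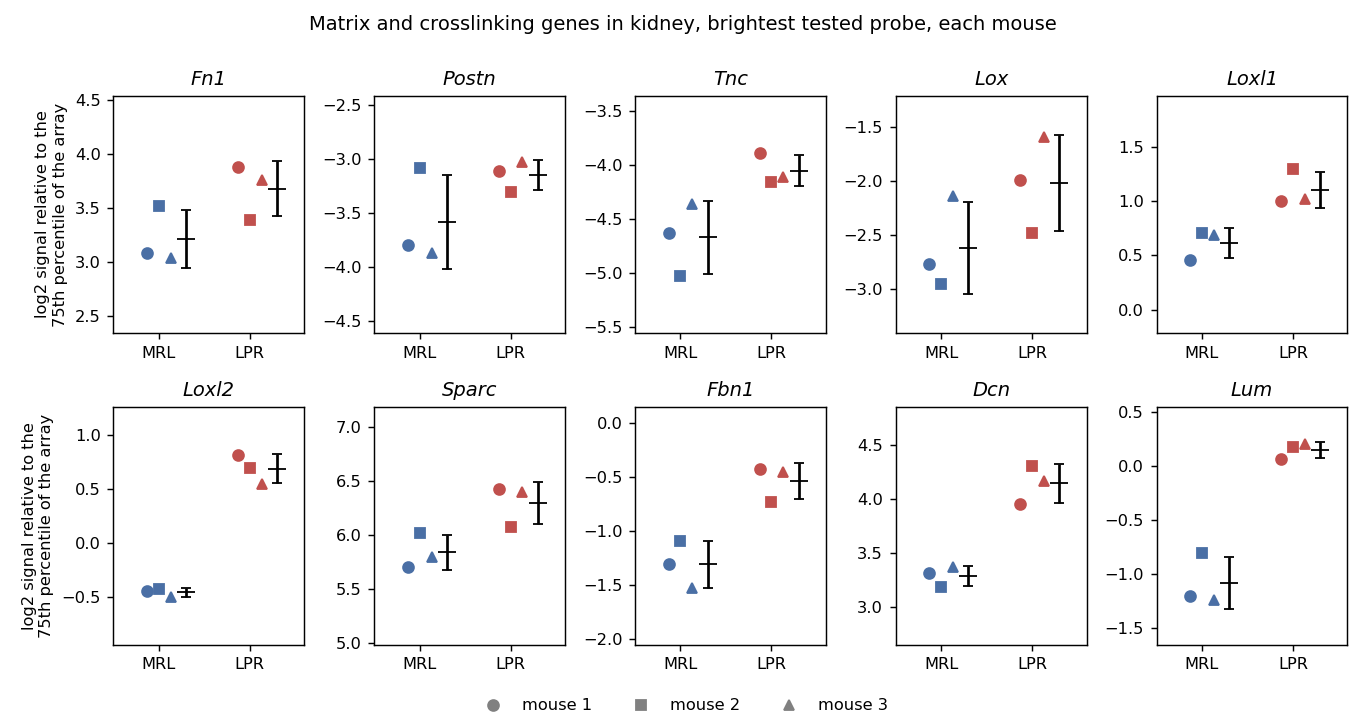
The log2 signal of the brightest tested probe of each gene (y axis, log2 intensity minus the 75th percentile of the array) in the 3 MRL mice (blue) and the 3 LPR mice (red), with the mean and SD in black. All panels span the same number of log2 units around their own centre. The LPR mice lie above the MRL mice in 7 panels, and the groups overlap in Fn1, Postn and Lox.

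Both proteoglycans were higher in LPR mice. Dcn encodes decorin, which coats collagen fibrils and binds TGF-beta. Its only probe, whose sequence is given above, gave a log2 signal of 3.32, 3.19 and 3.37 in MRL mice 1 to 3 and 3.96, 4.31 and 4.17 in LPR mice 1 to 3. The groups did not overlap, and LPR 2 was the highest and MRL 2 the lowest of the 6 mice. The group values were 3.29 ± 0.10 (SD, n = 3) and 4.15 ± 0.17 (SD, n = 3), a log2 change of 0.85 (SE 0.13) or 1.81-fold in limma (adjusted p = 0.00636). With the row of the slide as a block the change was 0.67 and did not pass (adjusted p = 0.0757). Row and column are the first and the second number of the array position, and that the first is the row is an assumption. The first row so defined holds the 3 MRL mice and LPR 1, and the second holds LPR 2 and LPR 3 alone, so row and group are in part confounded. With the row as a block the change is therefore that of LPR 1 against the MRL mice. With the column as a block it rests on LPR 2 against MRL 1 and LPR 3 against MRL 2. MRL 3 and LPR 1 stand alone in their columns. A call lost with either block thus cannot tell slide position from the use of fewer mice.

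Lum encodes lumican, a relative of decorin that also regulates the assembly of collagen fibrils. Its only probe, A_51_P167527 (chr10:97035210-97035269), gave a log2 signal of -1.21, -0.81 and -1.24 in MRL mice 1 to 3 and 0.06, 0.17 and 0.20 in LPR mice 1 to 3. The 3 LPR mice were close to one another and far above MRL 2, the highest of the controls. The log2 change of 1.23 (SE 0.14, 95% confidence interval 0.89 to 1.57) was the largest among the brightest probes of the 10 genes, 2.35-fold, and passed the threshold in limma (adjusted p = 0.00209). It passed in all 19 alternatives, with log2 changes of 1.07 to 1.37. The probes of Dcn and Lum both lie on chromosome 10, where they start at 96980233 and 97035210.

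Of the 3 crosslinking enzymes Loxl2 was higher in LPR mice, and Loxl1 and Lox did not pass. LOXL2 oxidizes lysines of collagen, including type IV collagen of basement membranes. Its brightest probe, A_52_P480351 (chr14:70095254-70095313), gave a log2 signal of -0.44, -0.42 and -0.50 in MRL mice 1 to 3 and 0.82, 0.70 and 0.55 in LPR mice 1 to 3. The MRL mice were nearly equal, and the gap to the lowest LPR mouse was larger than the spread in either group. The change was 1.15 on the log2 scale (SE 0.11), 2.22-fold, and had the smallest adjusted p of the 10 genes in limma (adjusted p = 0.000869). It passed in all 19 alternatives, with log2 changes of 0.86 to 1.28.

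The other probe of Loxl2, A_55_P2131348, lies upstream of the first in the gene and its sequence is given above. Its log2 signal was -1.79, -1.57 and -1.69 in MRL mice 1 to 3 and -0.93, -1.17 and -1.24 in LPR mice 1 to 3. The groups did not overlap here either, with LPR 1 the highest mouse on both probes. The log2 change was smaller, 0.57 (SE 0.13), and passed by a small margin in limma (adjusted p = 0.0315). The call was lost in 11 of 18 alternatives. It was lost when any 1 of the 6 mice was left out, with log2 changes of 0.48 to 0.64 and an adjusted p of 0.0526 to 0.0976. The difference between the changes of the 2 probes was not tested.

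Loxl1 encodes an oxidase that acts mainly on elastin. Its only probe gave a log2 signal of 0.46, 0.71 and 0.69 in MRL mice 1 to 3 and 1.00, 1.30 and 1.02 in LPR mice 1 to 3. Each LPR mouse was above each MRL mouse, with LPR 2 the highest. The log2 change was 0.49 (SE 0.13, 95% confidence interval 0.17 to 0.80) and did not pass in limma (adjusted p = 0.0572). It passed in 4 alternatives, namely with an intensity trend in limma (adjusted p = 0.0235), with normexp background correction (adjusted p = 0.0169), with quantile normalization (adjusted p = 0.0367) and among the probes well above background on all 6 arrays (adjusted p = 0.0442).

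Lox encodes lysyl oxidase itself. Its brightest probe, A_55_P2911063, gave a log2 signal of -2.77, -2.95 and -2.14 in MRL mice 1 to 3 and -1.99, -2.48 and -1.59 in LPR mice 1 to 3. The groups overlapped, because MRL 3 was above LPR 2. The log2 change of 0.60 had a wide 95% confidence interval of -0.08 to 1.28 and did not pass in limma (adjusted p = 0.211). The other probe, A_66_P138929, exceeded background clearly in all 3 LPR mice but in 1 of 3 MRL mice. It gave -6.40, -6.68 and -5.32 in MRL mice 1 to 3 and -4.71, -5.90 and -4.83 in LPR mice 1 to 3, again with MRL 3 above LPR 2. It did not pass either (adjusted p = 0.18), and its size is uncertain near background, with a log2 change of 0.99 here and of 0.10 with normexp (adjusted p = 0.519). Lox did not pass in any of the 19 alternatives, and with normexp the log2 change of its brightest probe was 0.38 (adjusted p = 0.151).

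Fbn1 encodes fibrillin-1, the main protein of the microfibrils. The brightest of its 3 probes, A_55_P2931427 (chr2:125126583-125126642), gave a log2 signal of -1.31, -1.09 and -1.53 in MRL mice 1 to 3 and -0.43, -0.73 and -0.46 in LPR mice 1 to 3. The groups did not overlap, and LPR 2 was the LPR mouse nearest to the controls. The log2 change was 0.77 (SE 0.15), 1.70-fold, and passed in limma (adjusted p = 0.0208). The call was lost in 8 of 19 alternatives, among them with the column of the slide as a block (0.60, adjusted p = 0.117), by the methods' test (adjusted p = 0.0745), without LPR 1 (0.71, adjusted p = 0.0629), without LPR 3 (0.73, adjusted p = 0.0728), without MRL 1 (0.77, adjusted p = 0.0673) and without MRL 3 (0.66, adjusted p = 0.0642). The log2 change stayed between 0.60 and 0.88 in all of them.

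The neighbouring probe of Fbn1, A_51_P467224 (chr2:125126727-125126786), gave -1.97, -1.61 and -1.85 in MRL mice 1 to 3 and -0.77, -1.34 and -1.04 in LPR mice 1 to 3. LPR 1 was the highest and LPR 2 the lowest LPR mouse, as on the brightest probe, and the log2 change of 0.76 (SE 0.17) passed in limma (adjusted p = 0.0347). It passed only without LPR 2 when 1 mouse was left out, and the adjusted p was 0.0237 to 0.106 over the 6 omissions. The dim probe A_55_P2732863, which lies far from both in the direction of the start of the gene, exceeded background clearly in all 3 LPR mice but in 1 of 3 MRL mice. It did not pass (adjusted p = 0.0824), and since it was near background in most controls its size is uncertain, with a log2 change of 0.70 here and of 0.05 with normexp (adjusted p = 0.695).

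The glycoproteins did not pass by their brightest probes. Fn1 encodes fibronectin. Its brightest probe, A_55_P2130178 (chr1:71632116-71632175), gave a log2 signal of 3.08, 3.52 and 3.04 in MRL mice 1 to 3 and 3.88, 3.39 and 3.76 in LPR mice 1 to 3. MRL 2 lay above LPR 2, so the groups overlapped. The log2 change was 0.46 (SE 0.19, 95% confidence interval 0.02 to 0.90) with an adjusted p of 0.152 in limma. The 2 probes across a splice junction gave 0.41 (A_51_P100856, adjusted p = 0.23) and 0.21 (A_55_P2743309, adjusted p = 0.482), and the dimmer A_52_P237357 gave 0.36 (adjusted p = 0.245). With normexp the log2 changes of A_55_P2743309 and A_52_P237357 were 0.09 and 0.11. The groups overlapped on all 4 probes, and the brightest passed in none of the 19 alternatives.

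Tnc encodes tenascin-C, a glycoprotein of healing and inflamed tissue that is scarce in most adult organs. Its brightest probe, A_51_P291438, gave a log2 signal of -4.63, -5.03 and -4.36 in MRL mice 1 to 3 and -3.89, -4.16 and -4.11 in LPR mice 1 to 3. The groups did not overlap, with LPR 1 the highest and MRL 2 the lowest. The log2 change of 0.62 (SE 0.19) did not pass in limma (adjusted p = 0.0756). The probe across a splice junction, A_52_P355169, gave -5.02, -5.08 and -5.53 in MRL mice 1 to 3 and -4.60, -4.63 and -4.95 in LPR mice 1 to 3, a log2 change of 0.48 (adjusted p = 0.121). Here too no MRL mouse reached an LPR mouse, and the mean of both probes passed, with a log2 change of 0.55 (adjusted p = 0.0276). With normexp the changes of these dim probes were 0.19 (adjusted p = 0.161) and 0.01 (adjusted p = 0.942).

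Postn encodes periostin, a matricellular protein of fibroblasts that binds fibronectin, tenascin-C and collagen. Its brightest probe, A_51_P489192 (chr3:54194483-54194542), gave a log2 signal of -3.79, -3.08 and -3.87 in MRL mice 1 to 3 and -3.11, -3.30 and -3.03 in LPR mice 1 to 3. MRL 2 was above LPR 1 and LPR 2 on this probe. The log2 change was 0.43 (SE 0.22) and did not pass in limma (adjusted p = 0.239). Without MRL 2 it was 0.68 and passed (adjusted p = 0.0444), and with normexp it was 0.15 (adjusted p = 0.367).

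Of the other probes of Postn, A_55_P2503766 (chr3:54194385-54194444) gave a log2 change of 0.27 and, like the brightest, did not pass (adjusted p = 0.235). A_55_P2619020 (chr3:54194196-54194255) gave -4.96, -4.96 and -5.42 in MRL mice 1 to 3 and -4.17, -4.26 and -4.53 in LPR mice 1 to 3. On this probe the groups did not overlap, and MRL 1 and MRL 2 were level above MRL 3. Its log2 change of 0.80 (SE 0.17) passed in limma (adjusted p = 0.0271), but among the 6 omissions of 1 mouse it passed only without LPR 3, with an adjusted p of 0.0406 to 0.0755 over the 6. The call was lost in 10 of 18 alternatives, and with normexp background correction the log2 change was 0.15 (adjusted p = 0.265). A_55_P2716356 stayed near background in all 6 mice and was not tested. Whether the probes of Postn differ in their changes was not tested.

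Sparc encodes osteonectin, which binds collagen and calcium and takes part in the secretion and assembly of collagen. Its brightest probe, A_55_P2046812 (chr11:55208939-55208998), gave a log2 signal of 5.71, 6.02 and 5.80 in MRL mice 1 to 3 and 6.43, 6.08 and 6.40 in LPR mice 1 to 3. The groups were separated only by the small distance between MRL 2 and LPR 2. The log2 change of 0.46 (SE 0.14) did not pass in limma (adjusted p = 0.0848), nor in 16 of the 19 alternatives. It passed in limma without LPR 2 (0.57, adjusted p = 0.0472), with an intensity trend (adjusted p = 0.045) and with normexp (adjusted p = 0.026). The probe across a splice junction, A_52_P101852, gave 3.08, 3.33 and 2.94 in MRL mice 1 to 3 and 3.84, 3.40 and 3.63 in LPR mice 1 to 3, a log2 change of 0.51 (adjusted p = 0.0847). MRL 2 and LPR 2 were again the nearest mice of the groups. This probe passed in 2 of 18 alternatives, in limma with an intensity trend (adjusted p = 0.0396) and with normexp (adjusted p = 0.0237). The dim probe A_55_P2713955 (chr11:55222956-55223015) had a log2 change of -0.28 (SE 0.18, adjusted p = 0.329), the only one below 0 among the 22 tested probes.

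**Figure D2:**
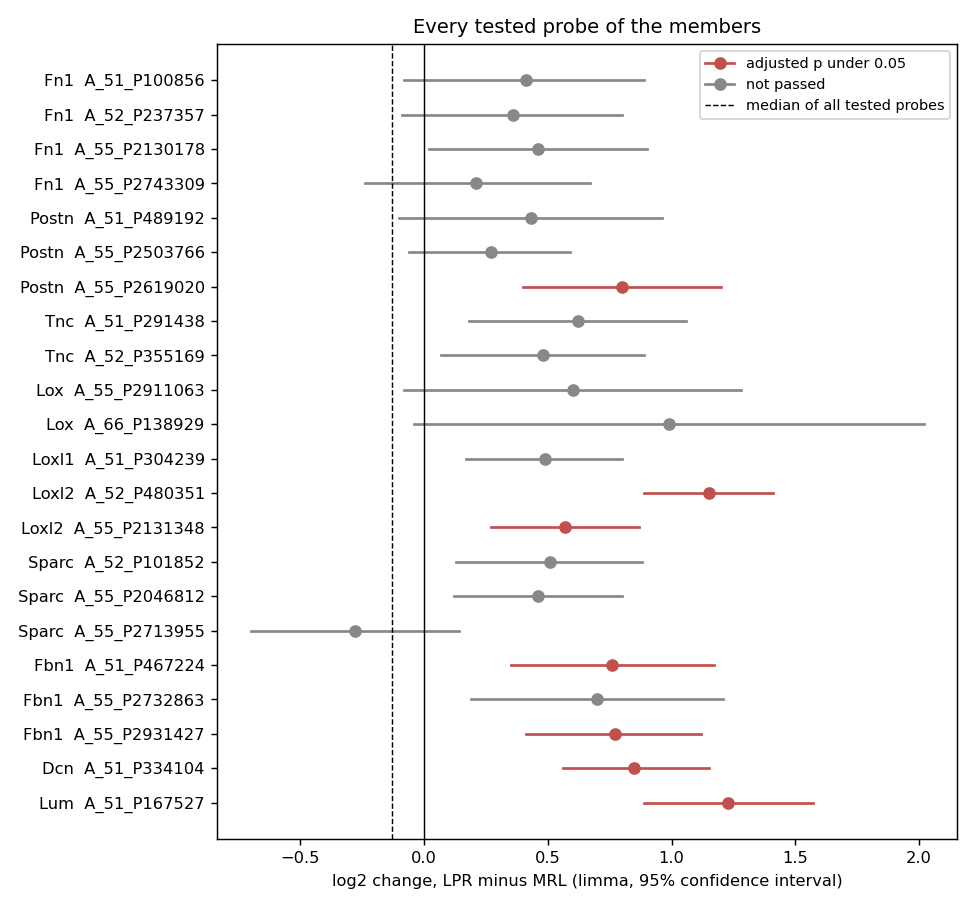
The log2 change of each of the 22 tested probes (x axis, LPR minus MRL) with its 95% confidence interval from limma, in red for the 7 probes with an adjusted p under 0.05 and in grey for the 15 others. The dashed line is the median of all tested probes (-0.13), and 21 of the 22 changes lie above 0.

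The mice of a group were not ranked alike by all 10 genes. Relative to the mean of the MRL mice, the 3 LPR mice were between 1.01 and 1.28 for Loxl2 and between 1.15 and 1.29 for Lum on the log2 scale. For Lox they were between 0.14 and 1.03, and for Fn1 between 0.18 and 0.67. Thus the LPR mice were close together in Loxl2 and Lum and far apart in Lox. LPR 1 was the highest of the LPR mice in 5 genes, LPR 3 in 3 and LPR 2 in 2, whereas LPR 2 was the highest in 43.9% of all genes. LPR 2 was the lowest of its group in 6 genes (Fn1, Postn, Tnc, Lox, Sparc and Fbn1) but the highest in Dcn and Loxl1. Among the controls MRL 2 was the highest in 7 genes and MRL 1 in 0.

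**Figure D3:**
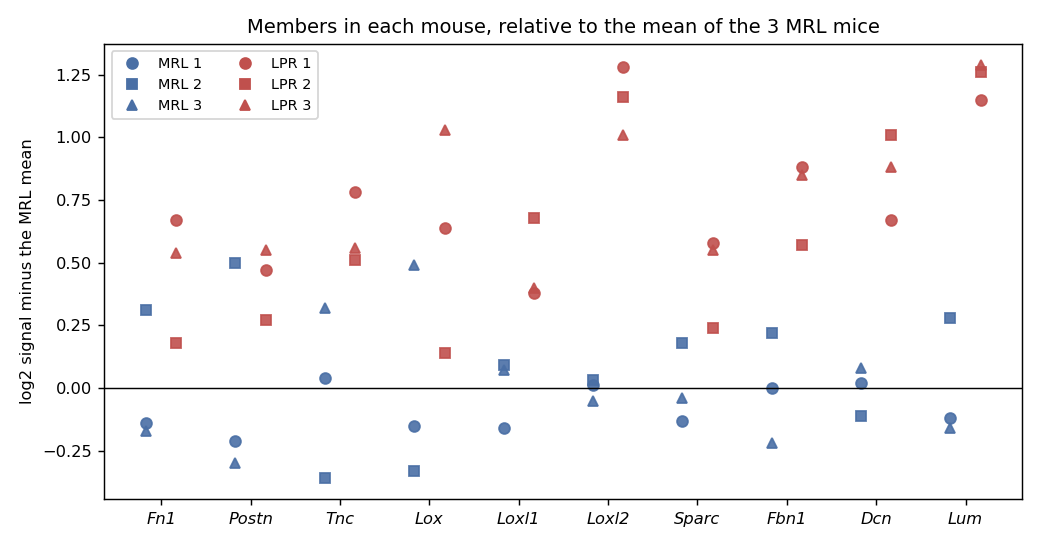
The log2 signal of each gene minus the mean of the 3 MRL mice (y axis, log2 units) in each mouse, MRL in blue and LPR in red, with the shape giving the number of the mouse. The LPR mice reach 1.01 or more in Loxl2 and 1.15 or more in Lum, whereas MRL 2 lies within the LPR range in Fn1 and Postn and MRL 3 in Lox.

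Genes that act next to these 10 were compared in the same fit, from lists taken by known function. Of 8 tested small leucine-rich proteoglycans other than Dcn and Lum, 4 were higher, 0 were lower and 4 did not pass, with a median log2 change of 0.39. Fmod (fibromodulin, which binds collagen fibrils) had a log2 signal of -3.03, -3.27 and -3.55 in MRL mice 1 to 3 and -2.04, -1.81 and -2.03 in LPR mice 1 to 3. Its log2 change was 1.32 (adjusted p = 0.00231), and no mouse of the groups overlapped. Prelp, a proteoglycan that anchors basement membranes to connective tissue, rose by 0.85 log2 units (adjusted p = 0.00782), and Ogn (osteoglycin) rose by 0.61 log2 units (adjusted p = 0.0443). Bgn (biglycan), named here after its value was seen because it completes the count, rose by 0.52 log2 units (adjusted p = 0.0249). Only 1 of the 3 tested probes of Bgn and 1 of the 2 of Prelp were higher. The count was 2 without any 1 of MRL 1, MRL 2, MRL 3, LPR 1 or LPR 3, 2 with the column of the slide as a block and 1 with its row, and Ogn passed in none of the 6 omissions (adjusted p = 0.0603 to 0.118). Epyc and Kera were not tested, as too few arrays were above background.

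Among 17 genes of elastic fibres and microfibrils, 5 were higher, 0 were lower and 12 did not pass, with a median log2 change of 0.44. Ltbp2, a protein of the microfibril, had a log2 signal of -2.61, -2.73 and -2.78 in MRL mice 1 to 3 and 0.65, -0.01 and 0.70 in LPR mice 1 to 3. It rose by 3.16 log2 units (SE 0.20, adjusted p = 0.00013), 8.93-fold and more than any of the 10 genes. Mfap5, which binds fibrillin, rose by 1.47 log2 units (adjusted p = 0.00548), and Emilin2, a glycoprotein of elastic tissue, rose by 1.25 log2 units (adjusted p = 0.00928). Neither Mfap5 (adjusted p = 0.051) nor Emilin2 (adjusted p = 0.0629) passed by the methods' test, by which 2 genes of the list were higher. The count was 3 without MRL 1, without MRL 3 and with the column of the slide as a block, and 2 with its row. Elastin itself (Eln, named after its value was seen) had a log2 change of 0.88 with an adjusted p of 0.0562 by its brightest probe. Of its 2 tested probes, 1 was higher and 1 did not pass.

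Of 17 tested matricellular glycoproteins beside Tnc, Postn and Sparc, 5 were higher, 1 was lower and 11 did not pass, with a median log2 change of 0.11. Tgfbi, a protein induced by TGF-beta that binds collagen and integrins, rose by 1.71 log2 units (adjusted p = 0.000178), from 0.86, 0.98 and 1.07 in MRL mice 1 to 3 to 2.79, 2.70 and 2.54 in LPR mice 1 to 3. Nov, of the CCN family, rose by 1.57 log2 units (adjusted p = 0.00176), and Thbs2, a thrombospondin, rose by 1.17 log2 units (adjusted p = 0.0043). Comp, also a thrombospondin, fell by 0.52 on the log2 scale (adjusted p = 0.0283), and it no longer passed without MRL 1, MRL 2, MRL 3 or LPR 1 (adjusted p of 0.0474 to 0.0963 over the 6 omissions). The count of higher genes was 3 without MRL 3, by the methods' test and with the row of the slide as a block. With normexp the log2 changes of Nov and Thbs2 were 0.86 and 0.52, and both passed.

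Of 13 other enzymes that crosslink the matrix or modify the lysines of collagen, 2 were higher, 0 were lower and 11 did not pass, with a median log2 change of -0.04. Loxl3, of the same family as Loxl2, had a log2 signal of -4.16, -4.16 and -4.50 in MRL mice 1 to 3 and -2.40, -2.51 and -2.67 in LPR mice 1 to 3, a rise of 1.75 log2 units (adjusted p = 0.000351). F13a1, the transglutaminase factor XIII, rose by 1.47 log2 units (adjusted p = 0.000433), by 1 of its 2 tested probes only. Both passed in all 19 alternatives, with log2 changes of 0.93 and 0.95 with normexp. Of the 15 genes of the basement membrane, the laminins, nidogens, perlecan and agrin, 0 were higher and 0 were lower in limma or by the methods' test, and 0 were higher and 2 lower at an unadjusted p under 0.05. With the mean of the probes of each gene 1 was lower, and 2 of the 5 probes of Lamb1, named after its values were seen, were lower. Their median log2 change of -0.12 equals that of all tested genes.

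Of 18 matrix receptors 5 were higher, 2 were lower and 11 did not pass, with a median log2 change of -0.02. Cd44, the receptor for hyaluronan, which leukocytes also carry, had a log2 signal of -3.91, -4.04 and -4.01 in MRL mice 1 to 3 and -0.76, -1.10 and -0.66 in LPR mice 1 to 3, a rise of 3.15 log2 units (adjusted p = 3.16e-05). Itgb3, an integrin chain that binds fibronectin and vitronectin, rose by 1.02 log2 units (adjusted p = 0.023), by 1 of its 2 probes only. The mean of both probes gave 0.29 (adjusted p = 0.366), and normexp 0.52 (adjusted p = 0.0134). The call was also lost by the methods' test (adjusted p = 0.0963), with no filter on dim probes (adjusted p = 0.0541), with the replicate block (adjusted p = 0.064), with the row of the slide as a block (adjusted p = 0.19) and without MRL 1, LPR 2 or LPR 3 (adjusted p of 0.0227 to 0.0693 over the 6 omissions). Sdc1, a heparan sulfate proteoglycan of epithelia and plasma cells, rose by 1.00 log2 units (adjusted p = 0.00612) and did not pass with the row of the slide as a block (adjusted p = 0.0616). Itgb6, an epithelial integrin chain, fell by 0.85 on the log2 scale (adjusted p = 0.00549) and did not pass with the column (adjusted p = 0.0666) or the row (adjusted p = 0.0559) of the slide as a block. Itgav, its partner, fell by 0.50 on the log2 scale (adjusted p = 0.036), by 1 of its 4 tested probes only. That call was lost without any 1 of the 6 mice (adjusted p of 0.0656 to 0.118). The count of higher receptors was 3 with the column and 1 with the row of the slide as a block.

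**Figure D4:**
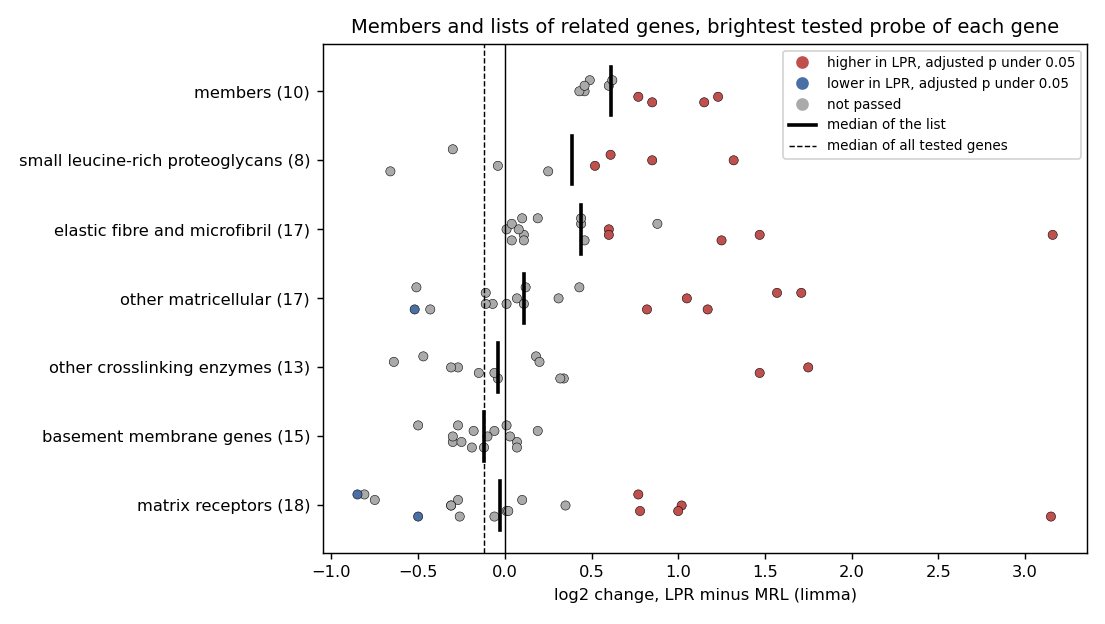
The log2 change (x axis, LPR minus MRL) of each gene by its brightest tested probe, for the 10 genes described here and 6 lists of related genes, with the number tested in brackets. Red points were higher and blue points lower with an adjusted p under 0.05 in limma, black bars are medians of the lists, and the dashed line is the median of all tested genes (-0.12). The 10 genes have a median of 0.61, the elastic fibre list 0.44 and the basement membrane list -0.12.

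Markers of cell types were read in the same fit. Of 7 markers of fibroblasts and pericytes 2 were higher and 0 were lower, and their summed signal (as multiples of the 75th percentile) was 8.24 to 9.74 in MRL mice and 14.9 to 15.6 in LPR mice. Most of that rise was Thy1, which T cells also carry, and the sum without it was 7.59 to 8.89 in MRL mice and 9.69 to 10.1 in LPR mice. Thy1 had a log2 change of 2.91 (adjusted p = 5.66e-05), and the other was Dpt (dermatopontin), with 1.45 (adjusted p = 0.00147). The receptors Pdgfra and Pdgfrb, named after their values were seen, had log2 changes of 0.24 (adjusted p = 0.232) and 0.32 (adjusted p = 0.15). Of 4 markers of smooth muscle and myofibroblasts 2 were higher, Tagln by 0.70 log2 units (adjusted p = 0.0115) and Acta2 by 0.61 log2 units (adjusted p = 0.0198), with a summed signal of 16.2 to 19.8 in MRL mice and 26.1 to 28.6 in LPR mice. Neither passed with the column (Tagln adjusted p = 0.0713, Acta2 adjusted p = 0.142) or the row (adjusted p = 0.115 and 0.15) of the slide as a block. Acta2 did not pass without MRL 1, MRL 3 or LPR 3 (adjusted p of 0.026 to 0.0743 over the 6 omissions). All 7 fibroblast and all 4 smooth muscle markers were well above background on all 6 arrays, and the groups did not overlap in either sum. The part of these cells in the rise of the matrix genes was not tested.

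Of 7 leukocyte markers 5 were higher and 0 were lower, with a summed signal of 28.6 to 37.1 in MRL mice and 42.4 to 45.4 in LPR mice. Ptprc, named after its values were seen, did not pass by its brightest probe, although 5 of its 6 tested probes were higher. Cd3e of T cells rose by 1.89 log2 units (adjusted p = 0.000123). Adgre1 of macrophages rose by 2.84 log2 units (adjusted p = 0.0274) with MRL 3 far above the other controls (-1.55, -1.75 and 0.70 in MRL mice 1 to 3). Its call was lost without MRL 1, MRL 2, LPR 1, LPR 2 or LPR 3, with an adjusted p of up to 0.0863. The part of leukocytes in the changes of the matrix genes was not tested.

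Markers of the proximal tubule were lower in 2 of 4 genes and higher in 0, with a summed signal of 396 to 450 in MRL mice and 305 to 342 in LPR mice. They were Slc5a2, which fell by 0.57 on the log2 scale (adjusted p = 0.0271), and Lrp2, which fell by 0.39 on the log2 scale (adjusted p = 0.0497). Only 1 of the 2 tested probes of Slc5a2 and 1 of the 5 of Lrp2 were lower. Slc5a2 did not pass without MRL 2, MRL 3, LPR 1 or LPR 3 (adjusted p up to 0.0969), and Lrp2 did not pass without any 1 of the 6 mice (adjusted p of 0.0765 to 0.156). Of 4 endothelial markers Kdr fell by 0.57 on the log2 scale (adjusted p = 0.0327) and 3 did not pass, with sums of 6.00 to 6.62 and 4.78 to 4.93, and Kdr passed in only 1 of the 6 omissions, without LPR 2 (adjusted p of 0.0227 to 0.105). Of the 4 podocyte markers and the 5 distal markers 0 passed in limma (1 podocyte marker was higher and 3 distal markers were lower at an unadjusted p under 0.05, and 1 distal marker was lower by the methods' test), with sums of 17.7 to 20.4 and 305 to 327 in MRL mice and 18.8 to 23.9 and 265 to 272 in LPR mice. Of the 4 adipocyte markers 0 passed in limma and by the methods' test, with 2 lower at an unadjusted p under 0.05, and their summed signal was 4.11 to 6.09 in MRL mice and 0.553 to 3.02 in LPR mice, with a median log2 change of -1.83. LPR 3 stood apart with the sum of 0.553, while LPR 1 and LPR 2 both had 3.02, and without LPR 3 the median was -0.81. Whether fat around the kidney had a part in the matrix genes was not tested.

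The genes whose pattern over the 6 mice was most like the mean pattern of Lum, Loxl2, Dcn and Fbn1 were found among 15296 genes by Euclidean distance, after the mean of each gene was subtracted. They were Adamtsl1 (distance 0.09), Panx1 (0.11), Matk (0.16), Col1a2 (0.16) and Fscn1 (0.17). By the brightest probe the log2 change was 0.97 in Adamtsl1 and 1.04 in Panx1. By the mean of the probes of each gene it was 0.49 (adjusted p = 0.0611 in limma) and 0.35 (adjusted p = 0.086), and neither passed. Col1a2, a chain of type I collagen, had a log2 signal of 3.00, 3.24 and 2.93 in MRL mice 1 to 3 and 4.14, 4.19 and 4.10 in LPR mice 1 to 3. It was higher in every LPR mouse than in any MRL mouse, and MRL 2 was the highest control, as in Lum, Loxl2 and Fbn1 but not in Dcn. Adamtsl1 encodes a secreted protein of the matrix, Panx1 a membrane channel, Matk a kinase of blood cells and Fscn1 the actin bundling protein fascin. The search chose genes by their difference between the groups, so it gives no test.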

How the data were processed

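Kidney RNA of 3 MRL and 3 LPR mice was hybridized to 6 single-colour arrays of 1 Agilent SurePrint G3 mouse slide, 1 mouse per array. The p-values therefore rest on the spread between these mice, which limma moderates for each probe by the spread of all tested probes. The study's methods name Trizol for the RNA and the labels the RNeasy Mini Kit. The intensity deposited by the authors for each spot came from Agilent Feature Extraction 12.0.3.1, after subtraction of background and detrending inside each array, and was not normalized between arrays. The authors also deposited these intensities as a ratio to the 75th percentile of the array, which served as an alternative.

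Control spots and outlier spots (73 to 90 per array) were left out. The 75th percentile, 699.6 to 930.1 intensity units, was subtracted on the log2 scale, and spots of 1 probe were averaged. Probes well above background on at least 3 of 6 arrays were compared in R 4.3.3 by limma 3.58.1, p-values were adjusted over all of them by Benjamini-Hochberg, and the threshold was 0.05. A gene is read by its brightest tested probe, under the name in the array annotation. Where a probe was well above background in no mouse of a group, a lower bound of the fold was computed from the lowest signal well above background on each array. Positions of probes are those of the array annotation on mm9, and no exon annotation of that build was used here.

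The genes, the lists of related genes and of cell type markers, and the tests were chosen with earlier results of these data known. Named were all 10 genes, Fas, the 3 largest rises and falls past the threshold in each list, and the 5 genes of the nearest pattern; 1 gene that this rule names is not reported here and stays in the counts. On simulated data with 39916 probes, limma recovered 53 of 100 probes changed by 1 and 89 of 100 changed by 2 on the log2 scale, with 0 of the wrong sign and 3 false calls. Only 200 simulated probes were changed, far fewer than were called in the data. Since the adjustment depends on that share, these numbers do not measure the sensitivity of the comparison. The 19 alternatives were other scalings (median shift, quantile, the authors' ratios), normexp with an offset of 50, other filters of dim probes, outlier spots kept, an intensity trend, blocks for slide position (2 numbers, the first assumed to be the row) and replicate number, the methods' test, probes averaged per gene, and omission of each mouse. Python 3.11.15 and matplotlib 3.10.9 drew the figures.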

Additional observations from a re-analysis of the deposited data

How the results depend on the processing

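The log2 changes of the 10 genes kept their direction in all 19 alternatives, but normexp made those of the dim genes smaller, Tnc 0.19 in place of 0.62, Postn 0.15 in place of 0.43 and Lox 0.38 in place of 0.60. Lum and Loxl2 passed in each, Dcn was lost in 1 and Fbn1 in 8. Of 190 values, 9 gained and 9 lost the call. Against 4 genes, 7 probes and, over all tested probes, 2610 higher and 2423 lower, the row of the slide as a block (added after the data were seen) gave 2 genes, 2 probes, 1469 higher and 456 lower. The column of the slide as a block gave 3 probes and 1007 lower. LPR 2 and LPR 3 do not enter the change with the row, nor MRL 3 and LPR 1 with the column. Losses with these blocks can therefore come from the use of fewer mice. The methods' test gave 3 probes, 1732 higher and 1345 lower. No filter on dim probes gave 4 probes and 1086 lower, and normexp gave 2532 higher and 4542 lower. Before adjustment 10698 of 39916 probes had a p under 0.05 by the methods' test and 12065 of 39924 by limma. With 1 mouse left out there were 3 to 6 higher probes of the 10 genes and 749 to 2270 lower probes in all (749 without MRL 2). No gene and no probe of the 10 was lower in any alternative. Fas, at -0.47 by its brightest probe, was at 0.71 by the mean of its probes.

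The replicate numbers are shared by the groups, but same-numbered mice did not deviate together (correlations of 0.115, 0.02 and 0.005), so the numbers do not pair the mice, and of the 3 pairs only MRL 1 and LPR 1 were each other's best match. With the replicate block there were 4 higher probes and 3 higher genes, and 1107 probes in all were lower.

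The counts of the related lists moved more than 1.5 times in 40 of 228 cases. The arrays hold 3 mice per group, which limits the smallest change that passes, and an exact test of 3 against 3 cannot go below a p of 0.1.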
